A study of Sus scrofa with 9 samples.

Results

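The miR-183, miR-96 and miR-182 cluster was read in small RNA libraries of pig (Sus scrofa) MII oocytes, PN embryos and sperm. Its members were every miRNA name that, without the species prefix, begins with miR-183, miR-96 or miR-182. The rule found 4 of the 1313 names listed, namely ssc-miR-183_R-1, ssc-miR-96-5p_R-2, ssc-miR-182 and mdo-miR-183-3p_R-1_1ss10AG. The last one carries an opossum prefix and was read as the opposite arm of the miR-183 hairpin from its name alone, since the meaning of its suffix was not given, while no name of the opposite arm of miR-96 or of miR-182 was listed. The 4 names shared no counts with any other name, and all 4 passed the filter on low counts.

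Each of the 3 groups had 3 libraries, all labelled as untreated, with no genetic change named. MII oocytes are mature eggs held at the second meiotic metaphase. They were matured in vitro from follicles of postpubertal Long White gilts, and their cumulus cells were stripped by hyaluronidase and vortexing. PN embryos are fertilized 1-cell eggs with visible pronuclei, made by in vitro fertilization with semen that the study's methods give as from Landrace boars, and likewise freed of cumulus cells and loose sperm. Sperm were fresh, purified cells of adult Large White boars, a breed other than that named for the embryos' sires. Oocytes and embryos were extracted in large pools, and nothing in the labels says that the libraries of a group came from separate pools, so p-values measure only the spread between these libraries, which may be technical.

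The 3 miRNAs are cut from one primary transcript in mammals. miR-96 and miR-182 have closely similar seed regions, the bases that select targets, whereas miR-183 has a different seed. The cluster is best known from the retina, the inner ear and other sensory organs, where it is abundant in photoreceptors and hair cells, and changes in the miR-96 seed cause hearing loss. miR-96 and miR-182 are also known to repress FOXO1, a transcription factor of survival and metabolism.

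In the pig assembly Sscrofa11.1 the 3 hairpin genes lie on chromosome 18 within 4645 bp. MIR183 spans 18982269 to 18982338 (70 bp), MIR96 starts 167 bp further on and spans 18982506 to 18982590 (85 bp), and MIR182 spans 18986830 to 18986913 (84 bp) after a gap of 4239 bp. No other gene of the RefSeq table overlaps them. The nearest genes are UBE2H, a ubiquitin-conjugating enzyme that ends at 18932909, and NRF1, a transcription factor of nuclear genes for mitochondrial proteins, which starts at 19008408. The hairpins therefore lie between genes in that annotation.

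Sperm libraries were the deepest (1640492 to 2455102 counts), before PN embryos (422630 to 771001) and MII oocytes (289183 to 381674), so depth and group cannot be told apart. Levels are given as CPM, the count scaled to a library total of 1000000. A single miRNA, miR-205, accounted for 45.2% to 49.3% of a library's counts in oocytes and embryos and at most 0.00707% in sperm. A share of the total therefore rests on different remainders in sperm, and values without miR-205 in the total are given beside the sperm results of the cluster. As in any bulk sample, fewer cells of a type and less RNA per cell cannot be told apart. Low values were listed irregularly: of the 6014 values above 0, none equalled 1, 132 were whole numbers of 2 to 4 and 435 equalled 5. The rule behind this is not known, and a listed 0 was taken, as a cautious limit, to stand for up to 5 reads.

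The cluster was present at a similar order of magnitude in eggs, embryos and sperm, and its summed level was highest in MII oocytes. It took 1.52% ± 0.147 of all counts in MII oocytes, 1.28% ± 0.0151 in PN embryos and 0.849% ± 0.0897 in sperm (SD, n = 3 each). With miR-205 left out of the totals, the summed level was 8490 ± 897 CPM in sperm, 23368 ± 303 CPM in embryos and 28995 ± 3606 CPM in oocytes (SD, n = 3 each), so that the distance to sperm was wider while the order was the same. The 3 groups did not overlap on either scale.

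miR-182 was the most abundant member everywhere. Its counts were 4011, 3779 and 3778 in the MII oocyte libraries, 4148, 6893 and 7752 in the PN embryo libraries and 12129, 10286 and 14394 in the sperm libraries. Divided by the totals, the oocyte libraries held 10509, 12629 and 13064 CPM, the embryo libraries 9815, 9914 and 10054 CPM and the sperm libraries 7394, 5934 and 5863 CPM. Every MII oocyte library was above every PN embryo library, and every PN embryo library above every sperm library. The closest libraries of different groups in that order were MII oocyte library 1 and PN embryo library 3. The group means were 12068 ± 1367, 9928 ± 120.5 and 6397 ± 864 CPM (SD, n = 3 each), which placed miR-182 at rank 11 of all names in MII oocytes, rank 12 in PN embryos and rank 31 in sperm. Without miR-205 in the totals the means were 23011, 18185 and 6397 CPM.

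miR-183, the member with the distinct seed, followed the same order at a lower level. Its counts were 833, 708 and 622 in MII oocytes, 824, 1154 and 1427 in PN embryos and 2366, 2402 and 3297 in sperm. As levels these were 2182, 2366 and 2151 CPM in the oocyte libraries, 1949.7, 1659.7 and 1851 CPM in the embryo libraries and 1442, 1386 and 1343 CPM in the sperm libraries. Again the libraries of the 3 groups did not overlap. The means were 2233 ± 116, 1820.1 ± 147 and 1390.3 ± 49.8 CPM (SD, n = 3 each), at ranks 41, 56 and 78, and without miR-205 in the totals 4247, 3335 and 1390.4 CPM.

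miR-96, the member tied to hearing loss, was the least abundant of the 3 main products and did not follow that order. Its counts were 318, 266 and 280 in MII oocytes, 396, 687 and 749 in PN embryos and 1121, 1183 and 1748 in sperm. The oocyte libraries stood at 833, 889 and 968 CPM, the embryo libraries at 937, 988 and 971 CPM and the sperm libraries at 683, 682 and 712 CPM. MII oocytes and PN embryos overlapped, and both lay above all sperm libraries. The means were 897 ± 67.9, 966 ± 26.1 and 693 ± 16.8 CPM (SD, n = 3 each), at ranks 79, 84 and 105, and without miR-205 in the totals 1709, 1768 and 693 CPM.

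The opposite arm, miR-183-3p, was near the detection limit. It had 0, 13 and 0 counts in MII oocytes, 12, 42 and 33 in PN embryos and 8, 22 and 26 in sperm. The sperm levels were 4.88, 12.7 and 10.6 CPM, the embryo levels 28.4, 60.4 and 42.8 CPM and the oocyte levels 0, 43.4 and 0 CPM. Only MII oocyte library 2 listed it among the oocyte libraries, at a level inside the PN embryo range. All PN embryo libraries lay above all sperm libraries. Without miR-205 in the totals the means were 27.3, 80.2 and 9.39 CPM in the same order as the counts.

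**Figure D1:**
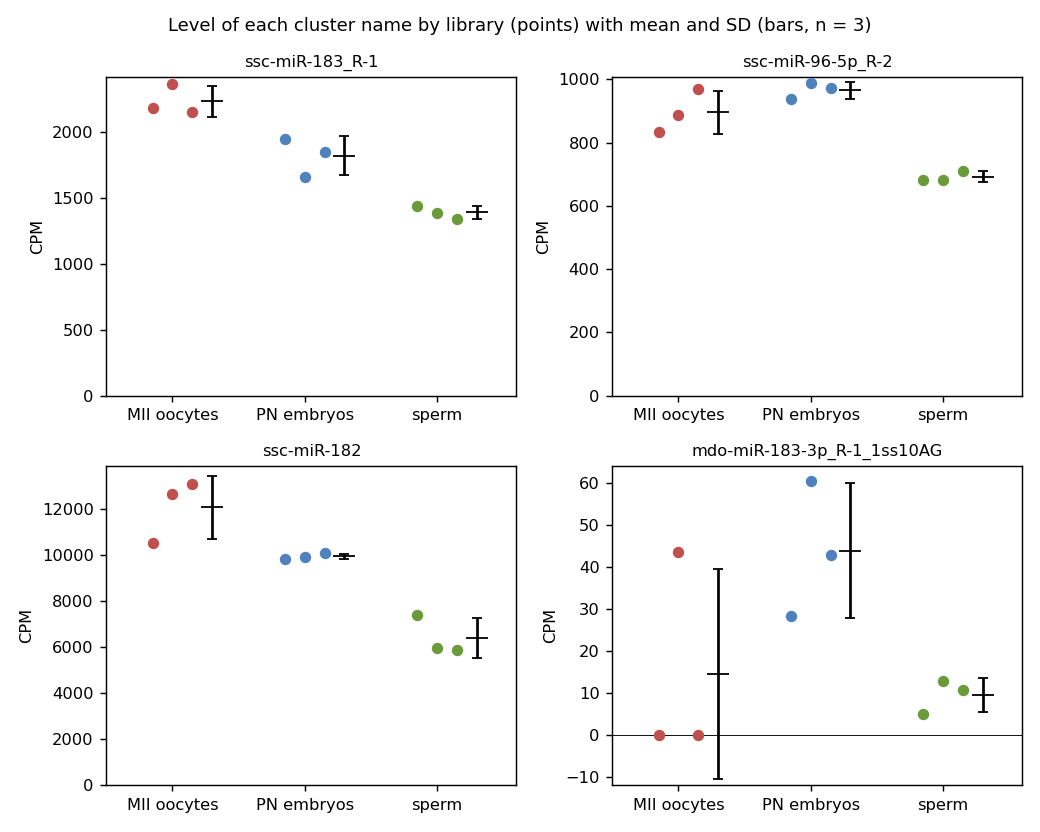
CPM (linear axes, a scale of its own in each panel) of the 4 names in the 9 libraries; points are libraries in the order 1 to 3, and the black bars give the mean and SD of 3 libraries. miR-182 and miR-183 step down at each group from left to right, miR-96 steps down only at sperm, and miR-183-3p is listed in 1 of 3 MII oocyte libraries.

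Between PN embryos and MII oocytes, the comparison across fertilization, miR-182 and miR-183 were lower in PN embryos by less than 1 on the log2 scale and miR-96 gave nearly equal levels. In edgeR none of the 4 names met the study's call (a Benjamini-Hochberg adjusted p, here q, under 0.05 and a log2 fold change of 1 or more in size), which 12.9% of the 587 names tested met, and DESeq2 called 0 of 4 as well; 2 of 4 had an unadjusted p under 0.05. At q under 0.05 alone 2 of 4 passed, against 25.2% of all names, and 2 of 4 had groups that did not overlap, against 39.5%.

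miR-183 was lower by a log2 fold change of -0.37 ± 0.08 (SE; 1.29-fold; q = 0.00709, edgeR quasi-likelihood test), and its q was over 0.05 in 3 of 20 other settings: without MII oocyte library 1 (q = 0.166), without PN embryo library 2 (q = 0.0737) and with identical rows merged (log2 fold change -0.16, q = 0.304). miR-182 was lower by -0.35 ± 0.10 (1.28-fold; q = 0.0274 in the same test), a q that was over 0.05 in 11 of 20 other settings, among them the leaving out of any 1 library of either group (q between 0.0609 and 0.175) and the merging of identical rows (log2 fold change -0.14, q = 0.538). The log2 fold change of miR-96 was 0.04 (95% interval -0.144 to 0.225, q = 0.847), an interval that, under the main scaling, leaves room for a change of up to about 0.2 in either direction. With identical rows merged the log2 fold change of miR-96 was 0.25 (q = 0.205). Of all names, 54.5%, 55.2% and 83.5% had a larger absolute log2 fold change than miR-183, miR-182 and miR-96. miR-183-3p had a log2 fold change of 1.60 with an interval of -0.622 to 3.82 (q = 0.307). Without MII oocyte library 2 the name was at 0 in both remaining oocyte libraries, and PN embryos were then at least 2.89-fold higher, counted against 5 reads per library.

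Sperm and MII oocytes, the paternal and the maternal gamete, differed in most miRNAs and, under the main scaling, by less than 1 on the log2 scale in the 4 cluster names. In edgeR the call was met by 83.0% of all names and by none of the 4, of which 3 had an unadjusted p under 0.05; DESeq2 called 0 of 4. At q under 0.05 alone 3 of 4 passed, against 88.9% of all names, and 3 of 4 had groups that did not overlap, against 81.6%. All 3 main products were lower in sperm under the main scaling.

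miR-182 was lower in sperm by a log2 fold change of -0.86 ± 0.10 (SE; 1.82-fold; q = 1.83e-05, edgeR quasi-likelihood test). miR-183 was lower by -0.63 ± 0.08 (1.54-fold; q = 2.91e-05), or by -0.41 without MII oocyte library 1. miR-96 was lower by -0.31 ± 0.08 (1.24-fold; q = 0.00433), and this q was over 0.05 in 12 of 20 other settings, up to 0.467, among them the leaving out of any 1 MII oocyte library (q between 0.13 and 0.384), of sperm library 1 or 2 (0.467 and 0.123) or of PN embryo library 1 or 3 (0.112 and 0.345). In these 7 the log2 fold change of miR-96 was between -0.19 and -0.08, the smallest without sperm library 1. The median absolute log2 fold change of all names was 5.27, and 87.1%, 89.6% and 93.4% of them exceeded miR-182, miR-183 and miR-96. Within 0.5 of 0 on the log2 scale lay 51 of the 587 names, miR-96 among them. miR-183-3p had a log2 fold change of -0.48 (95% interval -2.82 to 1.86, q = 0.687), with both groups near the detection limit, and -1.46 without miR-205 in the totals.

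The size of the sperm differences depended on the scaling. In edgeR with DESeq2 size factors the log2 fold changes were smaller, -0.67 for miR-182, -0.43 for miR-183 and -0.12 for miR-96. The q of miR-96 was then 0.276. After thinning to equal depth the log2 fold changes were -1.52 for miR-182, -1.24 for miR-183 and -0.88 for miR-96, and the first 2 met the call. The median of the 442 names then tested was -0.76. With the counts of miR-205 left out of the totals, and no TMM factor, the log2 fold changes were -1.85 for miR-182, -1.61 for miR-183 and -1.30 for miR-96. All 3 met the call. Under library totals alone, with miR-205 kept, they were -0.915, -0.684 and -0.369. The median was 0 over the 587 names of the main fit and -1.30 over the 533 names tested without miR-205, so the 2 medians cover different names. Relative to the median of -1.30 miR-182 lay at -0.55, miR-183 at -0.31 and miR-96 at 0. These distances depended on which names were tested. Under TMM scaling with at least 10 counts in 3 libraries as the filter, the median was 1.14. miR-182, miR-183 and miR-96 then lay at -1.91, -1.67 and -1.35 relative to it. With only the 2 groups in the fit they lay at -1.57, -1.34 and -1.02.

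Between sperm and PN embryos the pattern was similar. The call was met by 86.2% of all names and by 1 of 4, miR-183-3p. At q under 0.05 alone all 4 passed, against 92.2% of all names, and all 4 had groups that did not overlap, also against 92.2%. The log2 fold changes were -0.51 ± 0.10 for miR-182 (SE; 1.42-fold; q = 7.32e-04), -0.35 ± 0.08 for miR-96 (1.28-fold; q = 0.00134) and -0.26 ± 0.08 for miR-183 (1.20-fold; q = 0.00841). The q of miR-96 was over 0.05 in 10 of 20 other settings, among them the leaving out of MII oocyte library 1 (q = 0.0588), PN embryo library 1 or 3 (0.0543 and 0.271) or sperm library 1 or 2 (0.293 and 0.0776). The q of miR-183 was over 0.05 in 13 of 20, among them the leaving out of any MII oocyte library (q between 0.152 and 0.165), PN embryo library 1 or 3 (0.659 and 0.714) or sperm library 1 or 2 (0.592 and 0.253). Its log2 fold change was then between -0.16 and -0.04, the smallest without PN embryo library 1. That of miR-96 was -0.10 without sperm library 1, -0.15 without PN embryo library 3 and -0.21 to -0.20 without MII oocyte library 2 or 3, PN embryo library 1 or sperm library 2. The q of miR-182 stayed under 0.05 in all 20, with a log2 fold change of -0.30 without PN embryo library 3 and -0.32 without sperm library 2.

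The median of all names was -0.52 in this comparison, and miR-182 lay 0.01, miR-96 0.17 and miR-183 0.26 above it. That position depended on which names were tested. With at least 10 counts in 3 libraries as the filter the median was 0.68, and the 3 lay at -1.05, -0.89 and -0.80 relative to it, and with only the 2 groups in the fit they lay at -0.26, -0.12 and -0.01, so no direction relative to the median is given. In edgeR with DESeq2 size factors the log2 fold changes were -0.30 for miR-182, -0.15 for miR-96 and -0.06 for miR-183. Their q were then 0.0383, 0.141 and 0.539. After thinning to equal depth the log2 fold changes were -1.12, -0.86 and -0.81 for miR-182, miR-96 and miR-183. With miR-205 left out of the totals the log2 fold changes were -1.51, -1.35 and -1.26 for miR-182, miR-96 and miR-183. The median of the 533 names then tested was -2.37, and the 3 lay 0.86, 1.02 and 1.11 above it. By absolute log2 fold change, 92.7%, 95.4% and 96.9% of all names exceeded miR-182, miR-96 and miR-183, and the median over all names was 4.48.

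miR-183-3p was lower in sperm than in PN embryos by a log2 fold change of -2.08 ± 0.84 (SE; 4.23-fold; q = 0.0361, edgeR), and by -3.09 without miR-205 in the totals. It rests on 8 to 42 counts a library, and the call was lost in 9 of 20 other settings, among them the leaving out of PN embryo library 2 or 3 or of any 1 sperm library (q between 0.0656 and 0.171).

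**Figure D2:**
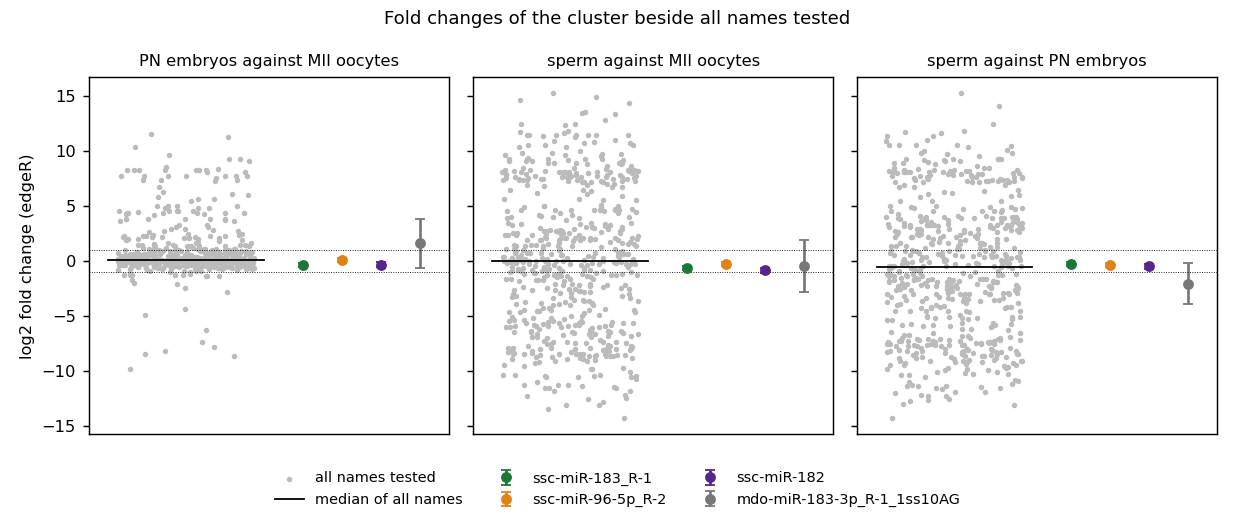
edgeR log2 fold change (linear axis of log2 units) in the 3 comparisons; grey points are the 587 names tested, the black line is their median, coloured points are the 4 cluster names with 95% intervals, and dotted lines mark -1 and 1. The 3 main products lie between -0.86 and 0.04 in all comparisons, while the median absolute value of all names is 5.27 and 4.48 in those with sperm.

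A similar level in all groups was shared with a minority of abundant names. At a mean of at least 500 CPM in each group, a limit chosen after the values were seen, 63 names were listed. Of these, 20 kept an absolute log2 fold change under 1 in all 3 comparisons, and miR-96 (largest 0.35), miR-183 (0.63) and miR-182 (0.86) were among them under the main scaling. ssc-miR-339-5p_R-2, ssc-miR-339_R-1 and ssc-miR-4334-3p, also among the 20, had the same largest value (0.322), so names may repeat the same counts.

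**Figure D3:**
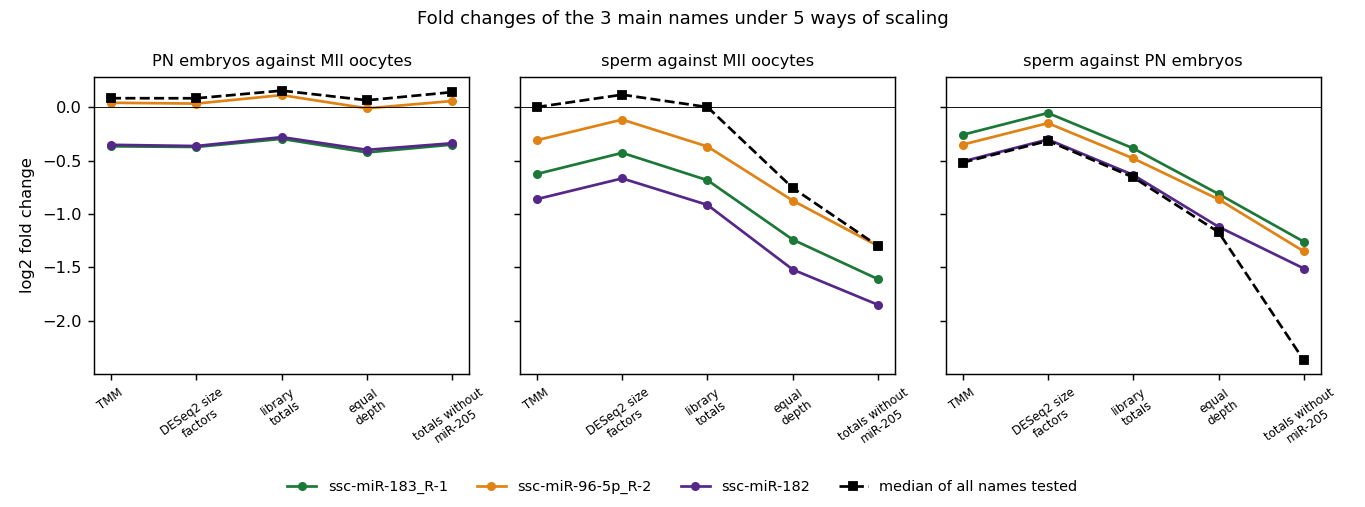
log2 fold changes (vertical axis) of the 3 main names in each comparison under 5 ways of scaling the libraries, with the median of all names tested as black squares. PN embryos against MII oocytes hardly moves. In both sperm comparisons the 3 main names move up with DESeq2 size factors, for miR-182 to -0.667 and -0.303. They shift down, for miR-182 to -1.52 and -1.12, after thinning to equal depth. When miR-205 is left out of the totals miR-182 is at -1.85 and -1.51.

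Because the 3 products leave one transcript, their proportions were also compared, which removes the scaling of the library. Each read covers a whole mature miRNA, so counts were not divided by length, and differences in adapter ligation between the 3 sequences were not measured. miR-182 made up 79.2% ± 1.5 of the cluster's counts in MII oocytes, 77.8% ± 0.7 in PN embryos and 75.2% ± 2.11 in sperm (SD, n = 3 each). miR-183 made up 14.8%, 14.2% and 16.4%, and miR-96 made up 5.91% ± 0.297, 7.57% ± 0.239 and 8.22% ± 0.941 (SD, n = 3 each). The share of miR-96 was between 5.58% and 6.16% in the MII oocyte libraries and between 7.17% and 8.98% in the other 6, with no overlap.

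**Figure D4:**
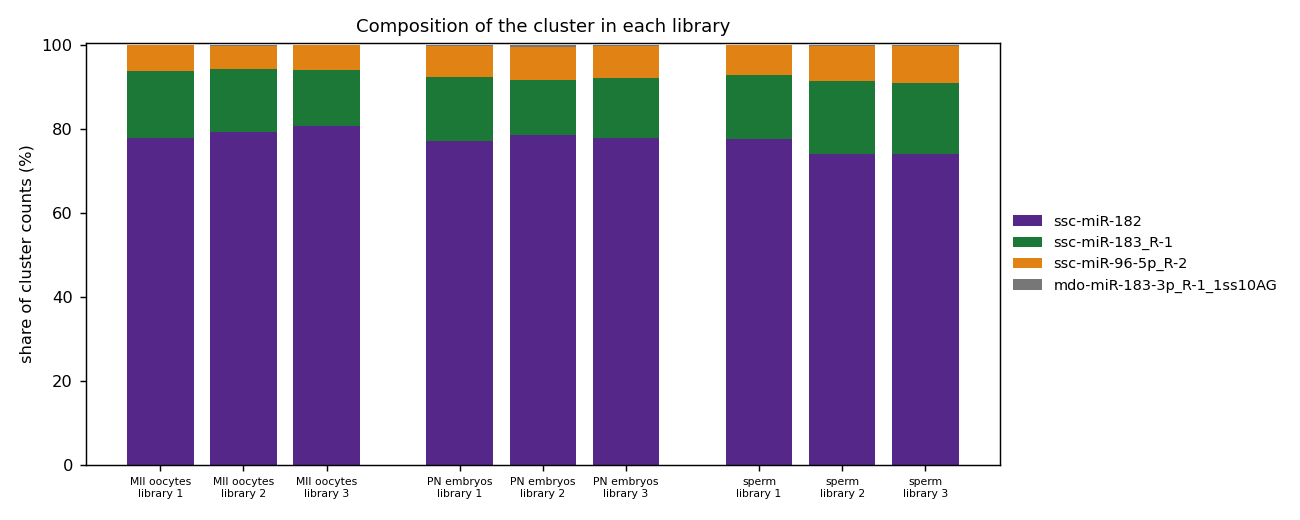
Share of the cluster's counts (%) taken by each name in each of the 9 libraries, as stacked bars. miR-182 fills between 73.9% and 80.7% of every bar, and the miR-96 segment is thinnest in the 3 MII oocyte libraries.

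miR-96 was counted 0.382, 0.376 and 0.45 times as often as miR-183 in the MII oocyte libraries, 0.481, 0.595 and 0.525 times in PN embryos and 0.474, 0.493 and 0.53 times in sperm. All MII oocyte libraries thus lay below all others. On the log2 scale the mean ratio was -1.32 ± 0.144 in MII oocytes, -0.91 ± 0.155 in PN embryos and -1.0 ± 0.0823 in sperm (SD, n = 3 each). The difference of PN embryos from MII oocytes was 0.41 and that of sperm from MII oocytes 0.31, each with p = 0.1 in a two-sided exact permutation test, the smallest p that 3 libraries against 3 can give, and an adjusted p of 0.3 over the 6 ratio comparisons made. Sperm and PN embryos differed by -0.09 (exact permutation p = 0.5, adjusted 0.6) and overlapped.

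The ratio of miR-182 to miR-183 overlapped between all groups. It was 4.82, 5.34 and 6.07 in MII oocytes, 5.03, 5.97 and 5.43 in PN embryos and 5.13, 4.28 and 4.37 in sperm. The mean log2 ratios of 2.43 ± 0.168, 2.45 ± 0.124 and 2.19 ± 0.142 (SD, n = 3 each) differed by 0.02 between PN embryos and MII oocytes (exact permutation p = 0.8). Sperm differed from MII oocytes by -0.23 and from PN embryos by -0.26 (exact permutation p = 0.2 each, adjusted 0.3), with sperm library 1 inside the range of the other groups.

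With the opossum-prefixed name read as the 3p arm of miR-183, the share of that arm could be given. It was 1.44%, 3.51% and 2.26% of both arms in the PN embryo libraries (95% Wilson intervals 0.823 to 2.49, 2.61 to 4.71 and 1.61 to 3.16) and 0.337%, 0.908% and 0.782% in the sperm libraries (0.171 to 0.664, 0.6 to 1.37 and 0.535 to 1.14). All PN embryo libraries were above all sperm libraries. In MII oocytes the share was 1.80% in library 2 (1.06 to 3.06) and 0 in libraries 1 and 3, where up to 5 unlisted reads would allow shares of up to 0.600% and 0.804%. These intervals and limits hold for counting error alone, as PCR duplicates could not be told from separate molecules.

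Outside the cluster, the names with the closest profiles over the 9 libraries were abundant miRNAs of other loci. The measure was the root mean square difference of log2(CPM + 1), each name centred on its own mean, over 534 candidate names, and it is a description with no test. miR-146a-5p, a regulator of innate immune signalling, was closest to miR-183 (0.0734), with means of 3216, 2729 and 2085 CPM in oocytes, embryos and sperm (n = 3 each). It was followed by miR-423-5p (0.101) and miR-107 (0.192). miR-423-5p was closest to miR-182 (0.141), before miR-146a-5p (0.196) and miR-125a (0.208), and miR-107 was closest to miR-96 (0.149), before miR-423-5p (0.167) and miR-146a-5p (0.171). Within the cluster, miR-183 differed by 0.166 from miR-182 and by 0.204 from miR-96, and miR-182 from miR-96 by 0.253. Thus 1 outside name was closer to miR-182 than miR-183 was, and 2 were closer to miR-183 than miR-182 was. For miR-96, 4 outside names were closer to it than miR-183 was, and 5 were closer than miR-182 was. In reverse, 3 were closer to miR-183 and 4 closer to miR-182 than miR-96 was.

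How far members of one transcript spread was read beside 2 other miRNA clusters. The log2 fold changes of the 3 main products spread over 0.41 across fertilization, 0.55 between the gametes and 0.25 between sperm and embryos. For miR-221 and miR-222 the spread was 0.10, 0.35 and 0.25 in the same order, and for miR-191 and miR-425 it was 0.87, 3.37 and 2.50. These are spreads of 3, 2 and 2 names and were not tested against each other.

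miR-1271, which shares its seed with miR-96, was listed under 1 name, ssc-miR-1271-5p_R+1. It averaged 212 ± 40.9 CPM in MII oocytes, 265 ± 27.0 in PN embryos and 104 ± 8.39 in sperm (SD, n = 3 each). It fell in sperm against PN embryos, under the main scaling, by a log2 fold change of -1.22 ± 0.14 (SE; q = 1.47e-05, edgeR), a call in the lower direction that 47.4% of all names met. Against MII oocytes the value was -0.99 ± 0.16 (q = 1.73e-04), short of the fold limit, and between PN embryos and MII oocytes 0.24 ± 0.16 (q = 0.334).

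The miR-34b, miR-34c and miR-449 names, typical of motile ciliated cells and male germ cells, moved far more than the cluster. miR-34a was not on this list. All 11 names were called higher in sperm against both other groups. Of all names, 42.2% were called higher against MII oocytes and 38.8% against PN embryos. The medians of the list were 8.47 and 8.19, beside 0 and -0.52 over all names. In every MII oocyte library 6 of the 11 were at 0, and in every PN embryo library 5 were. Names at 0 in both groups could pass the filter only through sperm, so their rise is no test. The medians rest in part on these listed zeros. miR-34c went from 1403 ± 77.3 CPM in MII oocytes to 68226 ± 2617 CPM in sperm (SD, n = 3 each). In PN embryos against MII oocytes 1 of 11, miR-449a (log2 fold change 1.03, q = 0.0235), was called higher, where 11.2% of all names were.

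Other miRNAs of the retina, inner ear and sensory neurons (miR-9, miR-124a, miR-184, miR-204 and miR-211) went in both directions. The list had 8 names, of which 6 were tested. In every MII oocyte library 4 of the 8 were at 0, and in every PN embryo library 3 were. A tested name at 0 throughout a group could pass the filter only through another group. Its rise against the group at 0, as for efu-miR-9-3p_R-1 against MII oocytes, is therefore no test. In sperm against MII oocytes 3 rose and 3 fell, where 42.2% of all names were called higher and 40.7% lower, and in sperm against PN embryos 4 rose and 2 fell, where 38.8% were called higher and 47.4% lower. In PN embryos against MII oocytes 0 rose and 2 fell, where 1.70% were called lower. The medians were 0.60, 5.62 and 0.34 beside 0, -0.52 and 0.08 over all names. Several of the tested names were of miR-9, so these counts and medians do not stand for separate miRNAs. ssc-miR-9-2 was at 716 ± 201 CPM in MII oocytes, 292 ± 43.3 in PN embryos and 7402 ± 99.1 in sperm (SD, n = 3 each). efu-miR-9-3p_R-1 was at 0, 9.96 ± 7.78 and 1321 ± 53.2 CPM in the same order. miR-184, a miRNA of the eye surface and lens, was at 267 ± 97.7, 488 ± 35.1 and 11.3 ± 5.65 CPM.

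Marker miRNAs of other cell types the samples could hold also differed between the groups. Beside their counts stand the shares of all names called higher and lower, 11.2% and 1.70% in PN embryos against MII oocytes, 42.2% and 40.7% in sperm against the oocytes, and 38.8% and 47.4% in sperm against the embryos. The 8 ovarian somatic names (such as miR-132 and miR-383) summed to between 832 and 934 CPM in MII oocytes, 1204 and 1300.2 in PN embryos and 4368 and 4495 in sperm. None of them was at 0 throughout a group. miR-132 and miR-383 were among those called higher in both sperm comparisons. The names called lower in sperm were less abundant names of the list. miR-132 alone, at 2931 ± 86.5 CPM (SD, n = 3), made up most of the sperm sum, so the sum does not stand for all 8 names. In PN embryos against MII oocytes 2 rose and 0 fell, in sperm against MII oocytes 4 rose and 3 fell, and in sperm against PN embryos 3 rose and 3 fell. The 9 blood names summed to between 1082 and 1861 CPM in MII oocytes, 2462 and 2645 in PN embryos and 272 and 386 in sperm. Most of the oocyte and embryo sums was miR-155, with means of 1231 ± 315 and 1686 ± 74.5 CPM (SD, n = 3 each). These sums therefore do not stand for all 9 names. Of the 6 tested, 2 rose in PN embryos against MII oocytes, among them miR-451, an erythroid miRNA (log2 fold change 2.24, q = 4.78e-04). In the same edgeR test miR-155 (log2 fold change 0.384, q = 0.193) and miR-486 (0.485, q = 0.0955) were not called. In sperm against MII oocytes 1 rose and 2 fell, and in sperm against PN embryos 1 rose and 4 fell. Of the 9 blood names, 2 were at 0 in every MII oocyte library, 1 in every PN embryo library and 2 in every sperm library.

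The 14 epithelial names summed to between 460154 and 494621 CPM in MII oocytes, 453356 and 459714 in PN embryos and 11699 and 12433 in sperm, nearly all of it miR-205 in the first 2 groups. Of the 10 tested, 0 rose and 0 fell in PN embryos against MII oocytes, and 6 rose and 3 fell in each sperm comparison, where 83.0% and 86.2% of all names were called in either direction. In every MII oocyte library 7 of the 14 were at 0, and in every PN embryo library 6 were. Tested names at 0 in both groups could pass the filter only through sperm, so their rise is no test. The part of these cell types in the levels of the cluster was not tested.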

How the data were processed

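Small RNA libraries of MII oocytes, PN embryos and sperm (3 each) were made by the authors with ligated adapters, reverse transcription and PCR. The deposited values were estimated counts per miRNA name, marked raw in the file header and not normalized; 10.4% of values above 0 were not whole, but all values of the cluster were (tolerance 0.001). Values were rounded. The submitters' processing notes name the build Sscrofa11.1; the aligner and the miRNA caller were not given in the sources used here. The meaning of suffixes such as R-1 was not given either. The table held 1420 rows and 1313 names, with 105 repeated names whose rows were identical, summed by name, and 0 unused sample columns. Sequences were not analysed here. Gene positions came from a RefSeq gene table of Sscrofa11.1.

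All names were tested in R 4.3.3 with edgeR 4.0.16 (quasi-likelihood F-test), in one fit of 9 libraries with group as factor, TMM scaling, filterByExpr (minimum count 10; 587 names kept) and Benjamini-Hochberg adjustment within each contrast. Each standard error is the log2 fold change over the square root of its F value. Before use the fit was run on simulated counts with changes set in PN embryos only. That run does not cover the sperm comparisons or their scaling. Ratios of members were compared with two-sided exact permutation tests (scipy 1.17.1), adding 0.5 to each count. CPM used the table total; intervals are 95% Wilson intervals. Replicates differed by more than sampling noise (chi-square per degree of freedom 2.2 to 12.7). The members, lists and tests were chosen with earlier results of these data known. The names described were all cluster names, the 3 closest profiles of each main product (mean of at least 10 CPM) and up to 3 most abundant names per list. Alternatives covered scaling (DESeq2 1.42.0 size factors, totals alone, totals without miR-205, thinning to 289180 counts), the DESeq2 Wald test, filters, name merging, the fit's samples, a replicate block, thresholds and each library left out.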

Additional observations from a re-analysis of the deposited data

How the results depend on the processing

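Over 20 alternatives each, the 12 fold changes of the cluster kept direction and side of the call in 217 of 240 cases, crossed into the call in 10, lost it in 9 and changed sign in 4. The lower level of miR-182 in sperm kept q under 0.05 in all 20 against either group, and that of miR-183 in all 20 against MII oocytes. Names called in PN embryos against MII oocytes numbered 0 in the main test, 2 at q under 0.05 alone and 0 to 1 with a library left out (1 without MII oocyte library 2, miR-183-3p). In sperm against MII oocytes they numbered 0 in the main test, 3 with totals without miR-205 (80.9% of all names were then called), 2 after thinning to equal depth (82.1%), 3 at q under 0.05 alone and 0 to 1 with a library left out. In sperm against PN embryos they numbered 1 in the main test, 4 with totals without miR-205 (86.5%), 4 at q under 0.05 alone, and 0 with the DESeq2 Wald test, summed isomiR names, q under 0.01 or the replicate block, and 0 to 1 with a library left out; thinning left 1, miR-182 in place of miR-183-3p (84.4%). The cluster's level without miR-205 in the total was 28995 CPM for oocytes and 23368 CPM for embryos, against 15212 and 12757 CPM. Signs changed for miR-96 in PN embryos against MII oocytes after thinning (-0.0118), for the log2 ratio of miR-182 to miR-183 in that comparison (-0.0585 to 0.109 with a library left out) and for miR-183-3p in sperm against MII oocytes, from -0.91 to 6.41 with a library left out; the last value, without MII oocyte library 2, is set by the small count the fit adds to listed zeros. Beyond these constructions the causes were not tested.

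Replicate numbers did not pair the libraries (correlations of same-numbered deviations -0.204 to 0.0279). With the replicate block, miR-183-3p changed sign in sperm against MII oocytes (0.26) and lost its call in sperm against PN embryos (log2 fold change -2.12, q = 0.0985), and the q of miR-182 in PN embryos against MII oocytes was 0.0913. Counts of 13 or fewer in MII oocytes limit every statement on miR-183-3p.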
